A study of Mus musculus with 8 samples.

Results

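Immediate early and AP-1 factors were described in mouse left ventricle with and without angiotensin II (ANG II). The members were 10 genes, Fos, Fosb, Fosl1, Fosl2, Jun, Junb, Jund, Atf3, Egr1 and Myc, taken by symbol from a table of 55679 genes. RNA-seq was performed on left ventricles of male wild-type C57BL/6J mice, with 4 control libraries from saline infusion and 4 libraries from infusion of ANG II, the vasoconstrictor peptide of the renin system. Infusion lasted 7 days in both groups through pumps under the skin, and ANG II was given at 1500 ng/kg/min, a pressor dose. The age of the mice and the number of animals behind each library were not given in the sources used here. The study describes more biological replicates in each group than the 4 libraries used here, and whether a library pools animals is not stated, so p-values measure the spread between these libraries only. Whole ventricle was sampled once, on the last day of infusion, so the values hold no time course. Each library held 14455654 to 16564828 fragments, and mitochondrially encoded genes took 26.3 to 26.9% of them in control and 19.2 to 21.8% in ANG II. Heart muscle, though not the chamber it came from, was checked through 7 cardiomyocyte markers (such as Myh6). Their FPKM (fragments divided by transcript length and library size) summed to 29630 to 30100 in control and 22800 to 24150 in ANG II.

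Immediate early genes are transcribed within minutes of a stimulus from factors already present in the cell, among them serum response factor, the Ets factors it recruits and CREB. Fos and Jun family proteins carry basic leucine zippers and pair with each other to form AP-1, which binds the sequence TGACTCA; Fos proteins need a Jun partner, whereas Jun proteins also pair among themselves. Atf3 is a zipper protein of the same superfamily induced by stress, Egr1 is a zinc finger factor, and Myc pairs with Max to bind E-boxes. In heart muscle these genes are best known for a brief rise after stretch or a hypertrophic agonist such as ANG II.

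Junb, Fos and Myc rose in ANG II, by 3.12, 2.46 and 2.17 times as ratios of group mean FPKM. Their groups did not overlap. The other 6 members tested, Fosl2, Atf3, Jun, Egr1, Fosl1 and Fosb, did not pass the test, and Jund was listed at 0 throughout. Jund was thereby the 1 member that did not pass the filter on low values, and Fosl1 passed it only through its ANG II libraries. A call was an adjusted p-value under 0.05 (limma on log2(FPKM + 1), Benjamini-Hochberg over the 19364 genes averaging 0.1 FPKM or more) with an absolute log2 fold change above 0.5. Thus 3 of 9 tested members (33.3%) were called higher and 0 lower, where 14.0% of all tested genes were called higher and 1.41% lower. The groups did not overlap, with ANG II higher, for the same 3 members and for 28.7% of all tested genes. The median log2 fold change was 0.45 over the 9 tested members and 0.15 over all tested genes, so that relative to all genes the log2 fold changes were 1.40 for Junb, 0.91 for Fos and 0.70 for Myc.

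The upstream sequences of both called AP-1 genes, Fos and Junb, and of Jun, the most abundant member in control, are shown because genes of this kind are switched on through sites close to their starts. RefSeq (GRCm38.p6) gave promoter windows for 7 members, Fos, Fosb, Fosl2, Jun, Junb, Jund and Atf3. The 250 bases before each start are printed 5′ to 3′ on the gene's strand, with motif matches in capitals. They lie at chr12:85473640-85473889 on the plus strand for Fos, chr8:84978749-84978998 on the minus strand for Junb and chr4:95052223-95052472 on the minus strand for Jun.
Fos: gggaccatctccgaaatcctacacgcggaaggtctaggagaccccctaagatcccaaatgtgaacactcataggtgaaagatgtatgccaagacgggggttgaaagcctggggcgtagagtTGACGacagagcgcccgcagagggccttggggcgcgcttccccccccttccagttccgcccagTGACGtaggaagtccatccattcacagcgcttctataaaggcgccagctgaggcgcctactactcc
Junb: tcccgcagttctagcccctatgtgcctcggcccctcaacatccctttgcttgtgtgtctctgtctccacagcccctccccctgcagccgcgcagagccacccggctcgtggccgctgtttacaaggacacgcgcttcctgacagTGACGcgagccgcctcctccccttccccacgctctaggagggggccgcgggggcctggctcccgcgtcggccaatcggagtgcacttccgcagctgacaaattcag
Jun: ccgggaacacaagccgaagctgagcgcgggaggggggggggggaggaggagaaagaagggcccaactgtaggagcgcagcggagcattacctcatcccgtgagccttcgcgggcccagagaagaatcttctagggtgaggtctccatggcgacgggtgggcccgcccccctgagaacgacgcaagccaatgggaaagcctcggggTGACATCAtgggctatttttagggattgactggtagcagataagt
The capitals mark TGACG, the core of a CREB/ATF site, in Fos and Junb, and TGACATCA, a match to TGACNTCA, in Jun. Both patterns were chosen after the sequences had been seen and were searched on both strands; TGACG lies within the full site TGACGTCA, which TGACNTCA also covers. In Fos, TGACG began 129 and 66 bases before the start. In Junb it began 106 bases before the start, and the Jun match began 45 bases before it. Over the windows of 300 bases (250 before and 50 after the start), TGACG was held by 4 of the 7 members (Fos, Fosb, Junb and Atf3, in the last on the minus strand) and by 20.8% of 32851 promoters, and TGACNTCA by 1 member and 8.83% of promoters. None of the 7 windows held the AP-1 site TGACTCA (5.20% of promoters), TGACGTCA (1.79%), the Ets site CCGGAAGT (3.89%) or the CArG box (1.63%). These are letter matches in a short window and were not tested for binding. Sites outside these windows were not searched. The windows follow RefSeq starts: that of Jund ended at chr8:70697738, before the gene position given for it below. Those of Fosl2 and Atf3 lay within the gene positions given below.

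Fos (ENSMUSG00000021250, chr12:85473890-85477273 in GRCm38), the founding Fos protein, is the classic early response gene. Its FPKM was 7.35, 7.27, 5.86 and 5.75 in control libraries 1 to 4 and 9.36, 13.2, 12.2 and 29.7 in ANG II libraries 1 to 4. Every ANG II library lay above every control library, but library ANG II 4 stood far above the other three of its group. Group means (± SD, n = 4) were 6.56 ± 0.873 FPKM for control and 16.1 ± 9.23 FPKM for ANG II. The log2 fold change was 1.06 (SE 0.28, 95% interval 0.43 to 1.68; limma adjusted p = 0.0163), and the exact two-sided permutation test over the 70 allocations gave p = 0.0286, the smallest possible for 4 against 4. Without ANG II 4 the ANG II mean was 11.6 ± 1.98 (SD, n = 3) and the log2 fold change fell to 0.73 (limma adjusted p = 0.00398; range over 17 alternative fits 0.00398 to 0.0651). Quantile normalization ended the call of Fos, with a log2 fold change of 0.79 (limma adjusted p = 0.0651). Recovered fragments for Fos numbered 96 to 116 per control library and 155 to 519 per ANG II library.

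Fosl2 (chr5:32135801-32157842, plus strand) encodes Fra-2, a Fos protein that lacks the strong activating region of Fos. It was the most abundant Fos family member in each control library, at 10.9, 9.42, 14.4 and 13.9 FPKM, and stood at 16.5, 11.8, 15.4 and 27.2 FPKM in ANG II. Library ANG II 2 lay within the control range, while ANG II 4 was again the highest. The log2 fold change of Fosl2 was 0.47 (95% interval -0.03 to 0.96; limma adjusted p = 0.136; exact permutation p = 0.114). It was called without ANG II 2 (0.63, limma adjusted p = 0.0478) and was 0.25 without ANG II 4, with limma adjusted p-values from 0.0405 to 0.484 over 17 alternative fits.

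Fosb (chr7:19302696-19310051, minus strand) is a further Fos protein, whose truncated splice form is long-lived. It was scarce, at 0.317, 0.649, 1.14 and 1.12 FPKM in control and 0.666, 0.805, 1.01 and 1.82 FPKM in ANG II. Only ANG II 4 exceeded the control range, and the log2 fold change was 0.20 (95% interval -0.26 to 0.65; limma adjusted p = 0.498), 0.04 without ANG II 4 and below 0, at -0.016, with quantile normalization. Fosl1 (chr19:5447547-5455946, plus strand), which encodes Fra-1, rested on 0, 1, 0 and 1 fragments in control and 8, 2, 0 and 3 in ANG II. At this depth a difference for Fosl1 was not detectable (limma adjusted p = 0.221), and a count of 0 allows up to 0.200 to 0.229 FPKM. Exons of Ccdc85b on the opposite strand cover 57.2% of the exon length of Fosl1, and strand use in counting was not given in the sources used here, so these fragments cannot be assigned to Fosl1 with certainty.

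Junb (ENSMUSG00000052837, chr8:84974484-84978718, minus strand) encodes a Jun protein that activates weakly and can restrain Jun on shared sites. Its FPKM was 13.5, 11.1, 7.81 and 7.01 in control and 25.5, 22.5, 31.3 and 43.7 in ANG II. The lowest ANG II library stood well above the highest control library, and ANG II 4 was the highest. Group means (± SD, n = 4) were 9.84 ± 3.00 and 30.7 ± 9.38 FPKM, and the log2 fold change was 1.55 (SE 0.23, 95% interval 1.03 to 2.06; limma adjusted p = 0.000727; exact permutation p = 0.0286). This was the largest log2 fold change among the members, and Junb kept its call under all 17 alternative fits and with a call threshold of 1, with 1.31 as the lowest log2 fold change and 1.37 without ANG II 4. Prdx2, on the opposite strand, covers 7.52% of its exon length and stood at 116 to 124 FPKM in control and 117 to 131 in ANG II.

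Jun (ENSMUSG00000052684, chr4:95049034-95052222, minus strand), a single-exon gene and the strongest activator of its family, was the most abundant member in control. It stood at 23.9, 16.9, 17.3 and 15.6 FPKM in control and at 29.3, 19.3, 20.4 and 21.6 FPKM in ANG II. Control 1 lay above all ANG II libraries but ANG II 1, so the groups overlapped. The log2 fold change was 0.28 (95% interval -0.06 to 0.62; limma adjusted p = 0.185; exact permutation p = 0.200). It was 0.06 with median-of-ratios scaling, 0.05 with quantile normalization, 0.16 without ANG II 1 and 0.41 without control 1, none of them a call. Over 17 alternative fits the limma adjusted p-values of Jun ran from 0.0240 to 0.823. They were under 0.05 with the replicate block and without control 1, where the log2 fold change stayed below the call threshold.

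Jund (chr8:70698949-70700616, plus strand), the Jun protein known for steady expression in many tissues, was listed at 0 in all 8 libraries. Gm11175 on the opposite strand covers 52.6% of its exon length and was also listed at 0 in all 8. Mt2, a metallothionein gene of most tissues, was listed at 0 in all 8 as well, beside 59.4 to 171 FPKM for its neighbour Mt1. Whether these 0 values stand for absent RNA or for a failed estimate was not tested. No level of Jund could therefore be given.

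**Figure D1:**
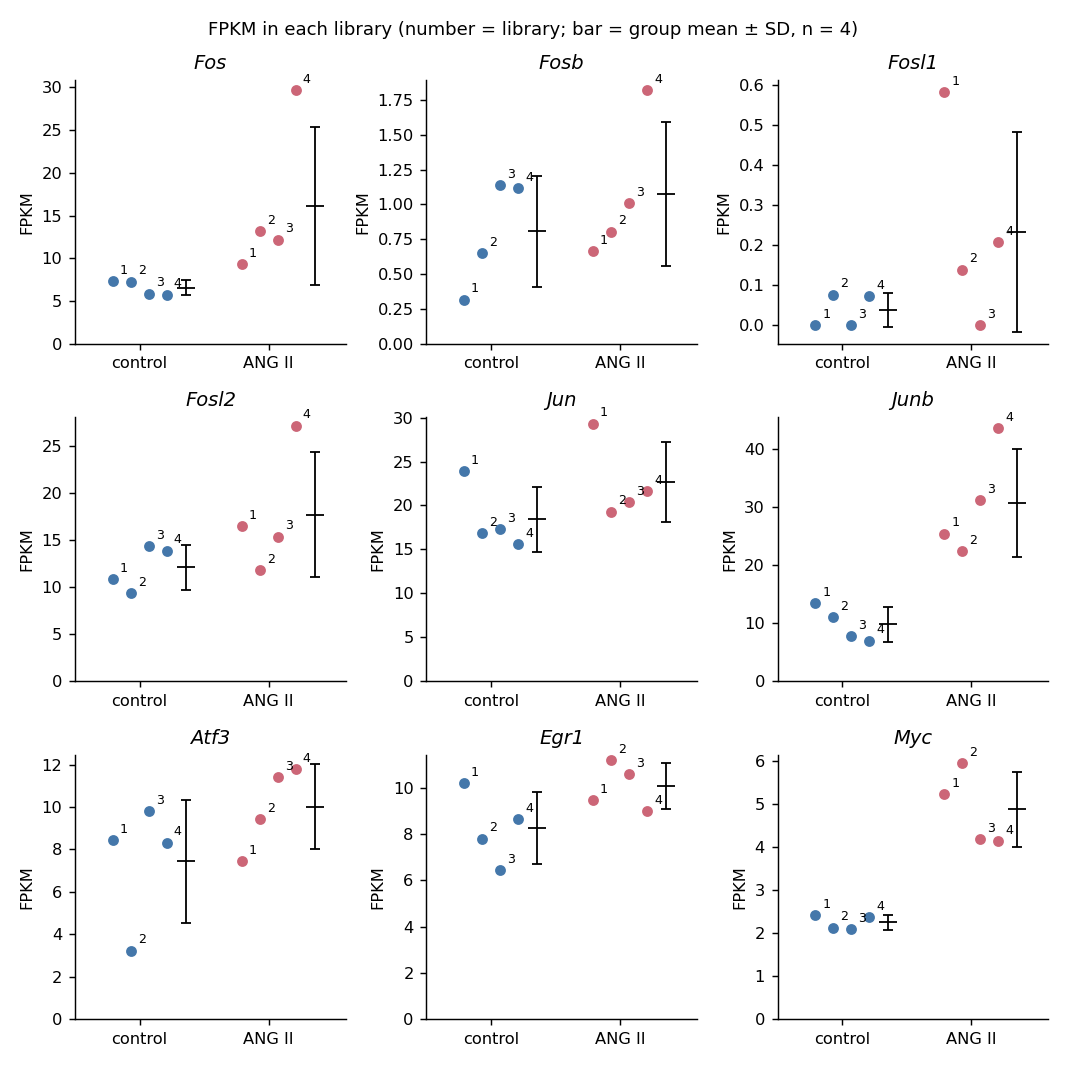
FPKM of 9 members in each library, 1 panel per gene with its own linear axis; numbered points are libraries and bars are group means ± SD (n = 4). Groups are apart for Fos, Junb and Myc, and ANG II 4 is the highest ANG II library for Fos (29.7), Fosb (1.82), Fosl2 (27.2), Junb (43.7) and Atf3 (11.8).

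Atf3 (chr1:191170296-191218039, minus strand), a stress-induced repressor, stood at 8.43, 3.22, 9.82 and 8.32 FPKM in control and 7.45, 9.43, 11.4 and 11.8 FPKM in ANG II. Control 2 was far below the rest, and the other control libraries lay within the ANG II range. The log2 fold change was 0.45 (95% interval -0.16 to 1.06; limma adjusted p = 0.241; exact permutation p = 0.200), and it was 0.14 without control 2. Among the control libraries, control 2 was also the lowest for all 7 heat shock genes listed, with Hspa8 at 937 FPKM against 1420 to 1550 in the other controls; the part of this in the Atf3 values was not tested.

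Egr1 (chr18:34859823-34864984, plus strand), the most studied early zinc finger factor, stood at 10.2, 7.81, 6.44 and 8.64 FPKM in control and 9.49, 11.2, 10.6 and 9.01 FPKM in ANG II. Control 1 fell inside the ANG II range. The log2 fold change was 0.27 (95% interval -0.01 to 0.55; limma adjusted p = 0.131; exact permutation p = 0.114), and with quantile normalization it was -0.0043. Over 17 alternative fits the limma adjusted p-values of Egr1 ran from 0.0403 to 0.983. Only without control 1 was it under 0.05, at a log2 fold change (0.36) below the call threshold. Egr1 did not share the high value of ANG II 4, which was the lowest of its group for this gene.

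Myc (ENSMUSG00000022346, chr15:61985391-61990374, plus strand), a driver of ribosome production and growth, was low in control and tightly grouped, at 2.42, 2.12, 2.08 and 2.36 FPKM. In ANG II it stood at 5.23, 5.94, 4.18 and 4.13 FPKM. The groups were far apart, and ANG II 4 was the lowest ANG II library here. The log2 fold change was 0.84 (SE 0.12, 95% interval 0.58 to 1.11; limma adjusted p = 0.000585; exact permutation p = 0.0286), and it was between 0.52 and 1.10 over 17 alternative fits, each of them a call at the threshold of 0.5. Myc was not called when an absolute log2 fold change above 1 was asked for. The pseudocount of 1 compresses a gene at this level: with 0.1 the log2 fold change was 1.07.

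**Figure D2:**
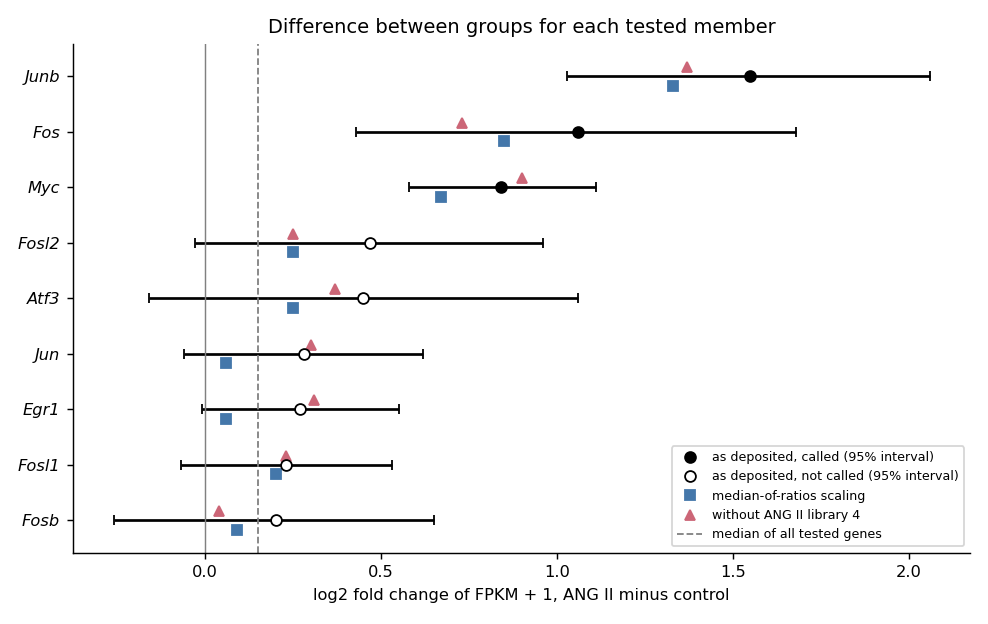
Log2 fold change (ANG II minus control, log2(FPKM + 1)) of the 9 tested members with 95% intervals; filled circles are calls, squares use median-of-ratios scaling, triangles leave out ANG II 4, and the dashed line is the median of all tested genes (0.15). Junb (1.55), Fos (1.06) and Myc (0.84) lie apart from 0, and leaving out ANG II 4 moves Fos to 0.73 and Fosl2 to 0.25 but leaves Myc at 0.90.

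The order of the levels also differed between the groups, described here on the FPKM scale, which is per transcript length. In control the means ran from Jun (18.4) through Fosl2 (12.2), Junb (9.84), Egr1 (8.27), Atf3 (7.45), Fos (6.56) and Myc (2.25) to Fosb (0.808) and Fosl1 (0.0369). Ranges of neighbours overlapped from Fosl2 to Fos, and Jun, Myc and Fosb stood apart from the gene next below them, as Fos did from Myc. In ANG II the order was Junb (30.7), Jun (22.6), Fosl2 (17.7), Fos (16.1), Egr1 (10.1), Atf3 (10.01), Myc (4.87), Fosb (1.08) and Fosl1 (0.232). There, ranges of neighbours overlapped from Junb down to Atf3.

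Within each library, scaling by a single factor leaves the ratio of Junb to Jun as it is. On the deposited FPKM it was 0.564, 0.654, 0.450 and 0.449 in control and 0.868, 1.17, 1.53 and 2.02 in ANG II. Junb thus made up 31.0 to 39.5% of the summed FPKM of Jun and Junb in control and 46.5 to 66.9% in ANG II, and these ranges do not meet. The ratio of Fos to Fosl2 overlapped, at 0.407 to 0.772 in control and 0.568 to 1.11 in ANG II, with Fos above Fosl2 only in ANG II 2 and ANG II 4. The summed FPKM of the 4 Fos family genes was 17.4 to 21.4 in control and 27.1, 25.9, 28.6 and 59.0 in ANG II libraries 1 to 4. Fosl2 supplied 54.1 to 67.3% of that sum in control and 45.6 to 60.8% in ANG II. These ratios are given as descriptions, with no test, since their parts are the values tested singly.

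**Figure D3:**
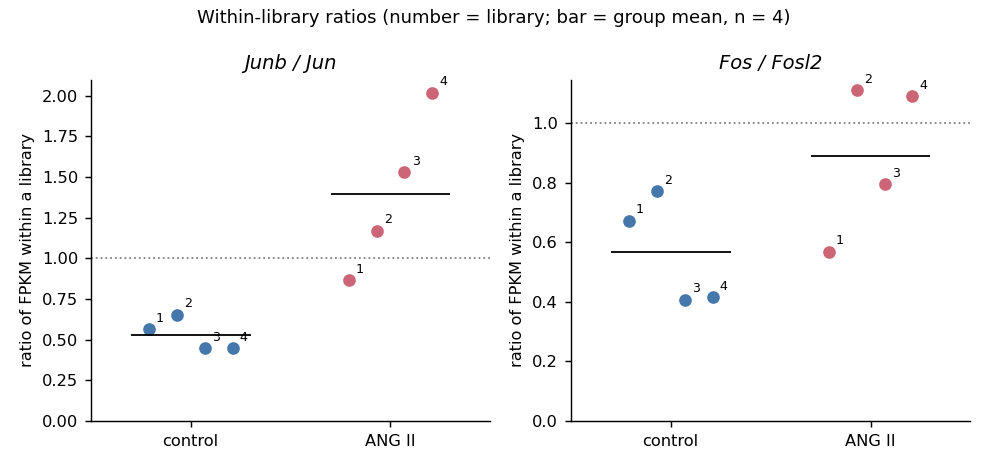
Ratio of FPKM within each library for Junb over Jun and Fos over Fosl2 on linear axes; numbered points are libraries, bars are group means (n = 4) and the dotted line marks a ratio of 1. Junb over Jun is 0.449 to 0.654 in control and 0.868 to 2.02 in ANG II, while the ranges of Fos over Fosl2 overlap.

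Spread between libraries of 1 group differed among the 9 tested members. The residual SD of log2(FPKM + 1) was 0.494 for Fos, 0.478 for Atf3, 0.401 for Junb, 0.386 for Fosl2, 0.259 for Jun and 0.197 for Egr1, against a median of 0.122 over the 7291 genes averaging 5 to 50 FPKM. These were the 6 members in that window, all 6 above its median. Below the window, Fosb had a residual SD of 0.334, Fosl1 of 0.202 and Myc of 0.160, at the 90.6th, 69.4th and 54.4th percentile of all tested genes. ANG II 4 was the highest ANG II library for 5 of the 9 tested members, for 17 of 33 other immediate early genes averaging 1 FPKM or more (51.5%), and for 29.2% of 12947 genes at that level. Control 1 was the highest control library for 5 of the 9 tested members for 11 of the 33 other immediate early genes (33.3%) and for 33.1% of the 12947 genes. Control 4 was the highest control library for 0 of the 9 members and 14 of the 33 (42.4%), and for 16.9% of the 12947 genes. What set these libraries apart was not tested.

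Over all tested genes, 14.0% were called higher and 1.41% lower, the shares to set beside the counts in this and the later lists, markers included. Other immediate early genes, from a list of 40 symbols of which 37 were tested, showed 9 called higher and 1 lower, with a median log2 fold change of 0.30. Among them Ctgf, a matrix-associated growth regulator, went from 33.8 ± 6.44 to 134.5 ± 27.6 FPKM (SD, n = 4 each; log2 fold change 1.96, limma adjusted p = 3.11e-05). Socs3, which brakes cytokine receptor signalling, went from 4.23 ± 0.868 to 14.3 ± 3.41 FPKM (1.53), and Ier3, an early survival factor, from 16.4 ± 4.18 to 39.5 ± 4.38 FPKM (1.25). Egr3, Dusp2, Klf10, Zfp36l1, Zfp36l2 and Gadd45b were the remaining genes called higher, at log2 fold changes of 0.57 to 1.00. Klf2, an endothelial factor induced by blood flow, was lower, at 42.8, 54.5, 48.3 and 53.9 FPKM in control and 32.0, 25.5, 33.8 and 28.8 FPKM in ANG II (log2 fold change -0.72, limma adjusted p = 0.000576). Under the 3 rescalings (median-of-ratios, quantile, and without mitochondrial and the 10 most abundant genes) 7 to 8 genes were called higher and 1 to 2 lower, and Gadd45b lost its call under each. Dusp2 lost its call with median-of-ratios scaling and quantile normalization, under which Rhob, a small GTPase, was called lower (-0.57 and -0.51). When 1 library was left out, Gadd45b lost its call in 6 of the 8 cases, the exceptions being control 4 and ANG II 2, and Dusp2 in 4 (control 2, 3 and 4 and ANG II 4). With voom on recovered fragments 16 of these genes were called in place of 10.

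Zipper proteins outside the members, which pair with Fos, Jun or each other, had 5 of 26 tested genes called higher and 0 lower (median 0.27). Maf, a large Maf factor, went from 3.47 ± 0.251 to 7.26 ± 1.35 FPKM (log2 fold change 0.87), Cebpa, a myeloid and fat cell factor, from 2.35 ± 0.372 to 5.16 ± 1.05 FPKM (0.87) and Mafk, a small Maf protein without an activating region, from 20.3 ± 1.27 to 31.8 ± 3.86 FPKM (0.61). Under each of the 3 rescalings this count fell to 2, Maf and Cebpa, Mafk losing its call, and without control 1 it was 8. Upstream of the early genes, 2 of 9 serum response and Ets genes were called higher (Mkl1, an actin-sensing coactivator, 0.64; Elk3, an Ets factor, 0.63), and both lost their calls with median-of-ratios scaling and with quantile normalization. Elk3 also lost its call (0.49) without mitochondrial and the 10 most abundant genes, where Mkl1 kept it (0.52). With quantile normalization Myocd, a coactivator of serum response factor, was called lower (-0.51).

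In the MAP kinase cascade, the main route from receptors to Fos transcription, 4 of 29 tested genes were called higher and 0 lower, with a median log2 fold change of 0.11, under that of all genes. They were Rps6ka1, which encodes a ribosomal S6 kinase downstream of ERK, from 3.71 ± 0.700 to 7.63 ± 0.541 FPKM (log2 fold change 0.88), Mapk11, a p38 kinase (0.73), Mapk7, which encodes ERK5 (0.66), and Mapk3, which encodes ERK1 (0.54). Of these, Rps6ka1 alone was called under each of the 3 rescalings. Mapk3 lost its call under each and without control 3 (0.49), Mapk7 with median-of-ratios scaling, and Mapk7 and Mapk11 with quantile normalization; with the same 2 settings Map3k5, a stress kinase, was called lower (-0.56 and -0.54). Of both Egr corepressors tested, Nab2, itself an Egr target, was called higher, from 1.82 ± 0.555 to 4.53 ± 1.19 FPKM (0.97).

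Of 12 tested genes of the Myc network, which compete for or bind Max and its relatives, 4 were called higher and 0 lower (median log2 fold change 0.31). They were Mxd3, a repressor that pairs with Max, at 0.274, 0.380, 0.478 and 0 FPKM in control and 2.87, 1.99, 2.62 and 0.694 in ANG II (log2 fold change 1.19, limma adjusted p = 0.00487), Mnt (0.63), Mxd1 (0.55) and Mxd4 (0.52). With median-of-ratios scaling or quantile normalization Mxd3 was the 1 gene of the network called. Without mitochondrial and the 10 most abundant genes Mxd1 (0.43) and Mxd4 (0.37) lost their calls, as did Mxd1 without ANG II 4 (0.48) and Mxd4 without control 1, 3 or 4 or ANG II 1 (0.45 to 0.49). With voom on recovered fragments Mxd3, Mnt, Mxd1, Mxd4 and Mycl, a Myc family activator (1.59), were called, and Mxi1, a further repressor, stood at 0.20 by limma without a call. Textbook Myc targets gave 3 of 18 called higher (median 0.23): Fbl, a nucleolar methyltransferase (2.49), Srm, which makes spermidine (0.69), and Npm1, a nucleolar protein (0.55). Fbl stood at 1.80, 1.43, 17.7 and 2.38 FPKM in control, with control 3 near the ANG II values of 21.7 to 26.7. Srm and Npm1 lost their calls after quantile normalization (0.42 for Srm, 0.36 for Npm1) and after median-of-ratios scaling (0.48 for Srm, 0.32 for Npm1), under which Hspd1, a mitochondrial chaperone, was called lower (-0.54 and -0.64). Without mitochondrial and the 10 most abundant genes Npm1 lost its call (0.40) and Hspd1 was called lower (-0.56), and without ANG II 3 the log2 fold change of Npm1 was 0.50, at the threshold and not called.

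Textbook AP-1 targets, a list drawn from general knowledge, gave 11 of 17 tested genes called higher and 0 lower, with a median log2 fold change of 1.01. The count was 9 with median-of-ratios scaling, 10 with quantile normalization and 13 with voom on recovered fragments. Plau, a protease gene, lost its call in the first 2 of these settings and without control 4, ANG II 1 or ANG II 3. Itga5, an integrin gene, lost its call with median-of-ratios scaling (0.48). Timp1, which inhibits matrix proteases, stood at 1.90 to 2.58 FPKM in control and 33.1 to 85.4 FPKM in ANG II (log2 fold change 3.99, limma adjusted p = 7.96e-06). Spp1, which encodes osteopontin, went from 1.15 ± 0.844 to 29.0 ± 14.5 FPKM (3.76). Several of these are also abundant in fibroblasts and macrophages, so the list is not specific to AP-1.

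**Figure D4:**
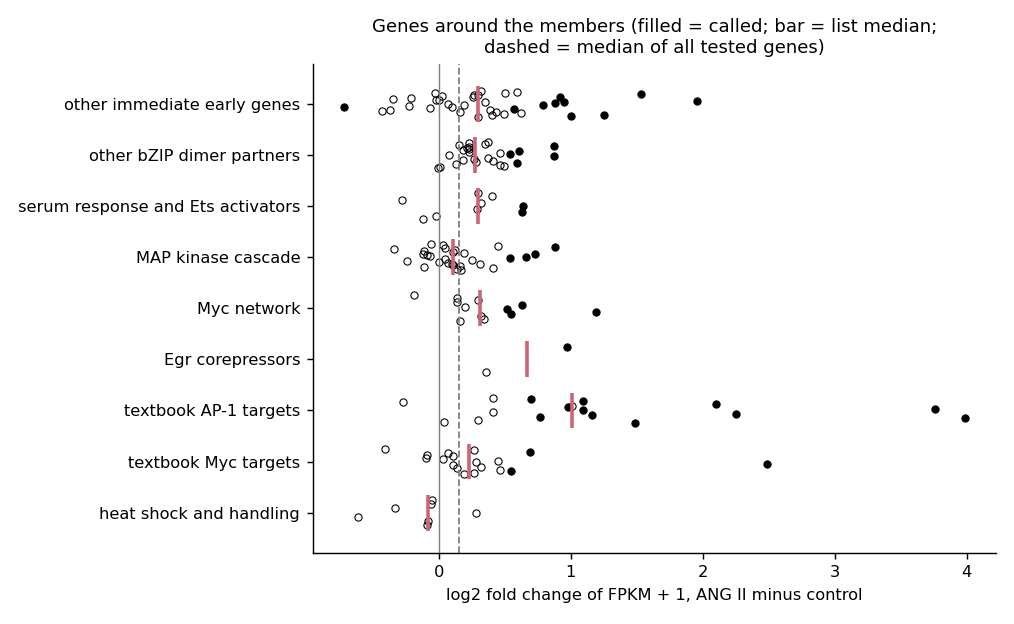
Log2 fold change (ANG II minus control, log2(FPKM + 1)) of each tested gene in 9 lists around the members; filled points are calls, bars are list medians and the dashed line is the median of all tested genes (0.15). Textbook AP-1 targets have the highest median (1.01) and heat shock genes the lowest (-0.08).

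Markers of several cell types moved with these values. In whole tissue, a change in the number of cells of a type and in the RNA per cell cannot be told apart. All 7 fibroblast and all 7 macrophage markers were called higher, with summed FPKM of 409 to 582 and 142 to 176 in control and 1802 to 2047 and 351 to 467 in ANG II. Of the fibroblast calls, Pdgfra was lost with median-of-ratios scaling and with quantile normalization (0.45 in both). Tcf21 was lost with quantile normalization (0.44). Neutrophil markers, of which 4 of 5 tested were called higher, summed to 2.58 to 6.79 in control and 8.72 to 22.0 in ANG II, with the defining gene Ly6g at 0 in 6 libraries. T cell markers had 2 of 6 called higher, endothelial 1 of 6 and smooth muscle 1 of 5. The endothelial call, Pecam1 (0.52), was lost under each of the 3 rescalings (0.29 to 0.37) and without ANG II 1 (0.48) or ANG II 3 (0.49). Cd4, a T cell call, was lost with quantile normalization (0.44). Atrial markers summed to 7.71 to 58.5 FPKM in control and 194.9 to 339 in ANG II, with a median log2 fold change of 2.30. Of the 4, Nppa and Sln were called higher. Nppa, whose peptide the paper lists among genes activated in hypertrophy, stood at 6.56 to 11.1 FPKM in control and 109 to 161 in ANG II. Myl7 (2.38) and Myl4 (2.23) were not called, though their groups did not overlap. Myl7 stood at 19.8, 21.1, 0.205 and 6.76 FPKM in control and 51.1, 28.2, 89.6 and 21.7 in ANG II. The cause of this spread was not tested. Sln lost its call in 4 of the 8 cases with 1 library left out (control 3 and 4, ANG II 1 and 3). It also lost it with median-of-ratios scaling, quantile normalization, a pseudocount of 0.1 and no filter. On the skeletal muscle list Acta1 and Tnnt3 were called higher and Ckm was not called (-0.39), while the defining genes Myh1, Myh2 and Myh4 were at or near 0, at most 0.101 FPKM, in every library. Erythroid markers were called higher in 5 of 5, summing to 96.8 to 487 in control and 581 to 2083 in ANG II. Cardiomyocyte markers were called lower in 2 of 7, Myh6 and Tnni3. Both of these calls were lost with quantile normalization (-0.10 for Myh6, -0.37 for Tnni3). The part of these cell types in the values of Junb, Fos and Myc was not tested. Heat shock genes, which respond to handling, had 0 of 7 called by limma, 1 at an unadjusted p-value under 0.05, 1 called lower with voom on recovered fragments (Hsph1, -0.63) and 1 to 2 called lower under the rescalings. Their sum was 1397 to 2490 FPKM in control and 1698 to 2059 in ANG II.

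The genes whose profile over the 8 libraries was most like that of each called member were found by the root mean square difference of centred log2(FPKM + 1) among 12946 genes averaging 1 FPKM or more. For Fos these were Gm25632 (0.253), Pou2f2 (0.284) and Tnfaip3 (0.287), against a median difference of 0.624. Junb was nearest to Tgif1 (0.199), 2410006H16Rik (0.204) and Rac2 (0.214), against a median of 0.770. For Myc they were Plscr1 (0.071), Igsf23 (0.072) and Lman1l (0.074), against a median of 0.392. These values describe likeness over 8 libraries in 2 groups and carry no test.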

How the data were processed

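Gene expression was measured by RNA-seq in 8 left ventricle libraries, grouped by their treatment labels (4 control, 4 ANG II). The authors deposited 1 table of FPKM values (fragments scaled by transcript length and by library total), 1 column for each library. The submitters' processing notes name Bowtie2, HISAT and RSEM; their roles, the genome build, the annotation and the use of strand were not given in the sources used here, and positions are from GENCODE M21 (GRCm38).

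The members and gene lists were chosen with earlier results of these data known. The deposited FPKM values were used as they stood in limma 3.58.1 under R 4.3.3 (lmFit and eBayes with trend) on log2(FPKM + 1), without covariates or a replicate block, for genes averaging 0.1 FPKM or more; fold changes understate low genes. Calls needed an adjusted p-value under 0.05, two-sided, and an absolute log2 fold change above 0.5, thresholds the study names without the log base. For single members an exact permutation test, two-sided, was added. The code was tested on simulated data.

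Fragments were recovered from the FPKM steps with mean transcript lengths, and for Junb and Myc with the shortest length (1809 and 1742 bases) giving whole fragments in all 8 libraries; 98.2% of values under 60 fragments were whole within 0.05. The limit that 0 allows was set at 3 fragments. Limits cover counting error only, as libraries had no molecular identifiers. Other steps ran in Python 3.11.15 with pandas 2.3.3, numpy 2.4.6, matplotlib 3.10.9 and scipy 1.17.1.

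From each list of pathway genes the text names up to 3 called genes with the highest and 3 with the lowest log2 fold change and a group mean of at least 1 FPKM, and for Fos and each called member the 3 nearest profiles; other genes named were chosen after their values were seen, and a gene that the rule picks but the text leaves out is not reported here, though counts include it. Alternatives changed the pseudocount, the filter, the scaling, the variance trend, the replicate block, the unit (voom on recovered fragments), the call threshold, or left out 1 library.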

Additional observations from a re-analysis of the deposited data

Results flagged for a closer look

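Fbl, a nucleolar methyltransferase and textbook Myc target, stood at 17.7 FPKM in control 3 and at 1.43 to 2.38 FPKM in the other control libraries, so that this library's gap to the nearest other was 0.941 of the group's range, above Dixon's 95% critical value for 4 samples. It was the 1 sample flagged among 62 groups of 4 checked over the members and the named genes, and chance flags about 1 in 20 groups.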

How the results depend on the processing

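At the threshold of 0.5, Junb and Myc were called in all 17 alternative fits and Fos in 16, the exception being quantile normalization; Myc was not called with an absolute log2 fold change above 1, and Fosl2 was called only without ANG II 2. The count of members called was 3, and 2 with quantile normalization or an absolute log2 fold change above 1, with a range of 3 to 4 when 1 library was left out. Fosb and Egr1 changed direction with quantile normalization (-0.016 and -0.0043). Over all genes, 2981 were called, 795 with an absolute log2 fold change above 1, 6447 on the adjusted p-value alone and 2763 to 3109 with 1 library left out. Of the calls 90.8% were higher in ANG II as deposited, 67.5% with median-of-ratios scaling (which moved the median of all genes from 0.15 to 0.004), 58.9% with quantile normalization and 78.7% without mitochondrial and the 10 most abundant genes; the cause was not tested. Libraries with the same number did not deviate together (correlations of -0.016, 0.062, -0.032 and -0.009), and the replicate block gave 2968 genes and 3 members. Fosb and Fosl1 had no value at a mean of at least 1 FPKM, nor Fosl1 without ANG II 1. Depth limits Fosl1, at most 8 fragments in a library.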
